A study of Mus musculus with 54 samples.

Results

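Apc and its partners in the beta-catenin destruction complex were followed in a MeDIP-seq study of mouse intestine, in which DNA carrying 5-methylcytosine is captured with an antibody and sequenced. The 9 genes were Apc, Apc2, Axin1, Axin2, Ctnnb1, Gsk3a, Gsk3b, Csnk1a1 and Btrc, out of 20665 protein-coding autosomal genes. All windows of 250 bp that overlap these genes or the 2000 bp on either side in mm10 were taken, which gave 2640 windows of 10535096 in the table. Windows with a deposited CpG density score of 10 or more within 2000 bp of the 5′ end are called the promoter island here (51 windows), and all others the gene body. In GRCm38 (mm10) the genes lie at 18:34220297 to 34322190 (Apc), 10:80295956 to 80318257 (Apc2), 17:26131217 to 26195811 (Axin1), 11:108917828 to 108950783 (Axin2), 9:120933400 to 120960507 (Ctnnb1), 7:25228258 to 25237851 (Gsk3a), 16:38089001 to 38246084 (Gsk3b), 18:61554236 to 61590320 (Csnk1a1) and 19:45363688 to 45533343 (Btrc). Neighbouring genes share flank windows with Apc2 (Rps15, 2310011J03Rik and Pcsk4), Axin1 (Pdia2 and Arhgdig), Ctnnb1 (Ulk4), Gsk3a (Zfp526) and Gsk3b (Nr1i2).

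The libraries came from 16 adenomas, 14 samples of normal mucosa and 16 samples of wild type mucosa of mice aged 15 to 19 weeks. Mice that carry Apc Min (genotype APC min) gave the adenomas and the normal mucosa, and mice without it the wild type mucosa; Min is a nonsense mutation that predisposes to intestinal adenomas. The strains were PWD/Ph (PWD, 3 wild type), the F1 cross of C57BL/6 and PWD (B6xPWD, 3 adenomas, 3 normal, 3 wild type), the chromosome substitution strain with PWD chromosome 5 on C57BL/6 (C5, 3 of each), its F1 with C57BL/6 (C5F1, 3 of each), the F1 of C57BL/6 with the strain carrying PWD chromosomes 1 and 5 (C1_5F1, 2 adenomas and 2 normal) and C57BL/6 itself (B6, 5 adenomas, 3 normal, 4 wild type). None of the 9 genes lies on chromosome 1 or 5. Adenoma and mucosa are bulk tissue, so a change in cell makeup and a change in methylation within cells cannot be told apart. The Min mutation is a single base change and cannot be checked in these counts.

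The destruction complex holds beta-catenin at a low level in cells without a Wnt signal. The scaffolds Apc and Axin bring beta-catenin to the kinases casein kinase 1 and Gsk3, and the phosphorylated protein is recognised by the F-box protein Btrc (beta-TrCP) and degraded. Loss of Apc function in the intestinal epithelium leaves beta-catenin active and starts adenomas. Methylation of CpG-rich promoters is a known route of gene silencing in tumours, which makes these promoters of interest in a series of Apc Min adenomas.

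RefSeq promoter sequences (GRCm38.p6) were available for 5 of the 9 genes. They are shown because their CpG content sets how much methylated DNA the antibody could capture, and every CpG is in capitals. The first 4 are promoters with almost no captured reads, and the last is the Apc2 start with the most reads, an internal one. Ctnnb1 and Apc2 have more than 1 promoter sequence, of which 1 is shown.
Ctnnb1, chr9:120933328-120933627, plus strand: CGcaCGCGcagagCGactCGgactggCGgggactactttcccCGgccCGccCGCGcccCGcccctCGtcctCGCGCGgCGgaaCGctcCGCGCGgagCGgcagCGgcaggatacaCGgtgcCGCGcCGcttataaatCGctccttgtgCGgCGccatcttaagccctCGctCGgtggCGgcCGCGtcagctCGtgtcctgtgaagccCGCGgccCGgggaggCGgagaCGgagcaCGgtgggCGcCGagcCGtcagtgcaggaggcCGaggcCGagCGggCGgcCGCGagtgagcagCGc
Axin2, chr11:108920099-108920398, plus strand: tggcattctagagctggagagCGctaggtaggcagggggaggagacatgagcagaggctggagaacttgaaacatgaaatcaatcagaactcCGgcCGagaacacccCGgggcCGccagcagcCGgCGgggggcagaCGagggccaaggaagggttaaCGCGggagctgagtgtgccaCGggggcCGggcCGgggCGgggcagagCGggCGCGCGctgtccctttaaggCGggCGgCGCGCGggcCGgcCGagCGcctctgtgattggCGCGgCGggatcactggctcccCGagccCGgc
Gsk3b, chr16:38088751-38089050, plus strand: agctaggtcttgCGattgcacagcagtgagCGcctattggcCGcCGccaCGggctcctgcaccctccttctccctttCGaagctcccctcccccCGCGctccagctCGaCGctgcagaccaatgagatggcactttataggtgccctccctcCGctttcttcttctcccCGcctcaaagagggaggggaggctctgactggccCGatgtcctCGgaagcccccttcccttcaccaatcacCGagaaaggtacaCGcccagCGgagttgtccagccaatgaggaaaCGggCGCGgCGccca
Gsk3a, chr7:25237802-25238101, minus strand: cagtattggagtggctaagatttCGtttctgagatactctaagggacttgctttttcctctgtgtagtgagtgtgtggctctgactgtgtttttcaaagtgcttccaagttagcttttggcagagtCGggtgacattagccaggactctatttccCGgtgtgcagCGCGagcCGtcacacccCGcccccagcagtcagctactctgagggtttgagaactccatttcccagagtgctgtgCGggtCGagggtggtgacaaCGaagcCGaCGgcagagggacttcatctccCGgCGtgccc
Apc2 internal start, chr10:80300792-80301091, plus strand: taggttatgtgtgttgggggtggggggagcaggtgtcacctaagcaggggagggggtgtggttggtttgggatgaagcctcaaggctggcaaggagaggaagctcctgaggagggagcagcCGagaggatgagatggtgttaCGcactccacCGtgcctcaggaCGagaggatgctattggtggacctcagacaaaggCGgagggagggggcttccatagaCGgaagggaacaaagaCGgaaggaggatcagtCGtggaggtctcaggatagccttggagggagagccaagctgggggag

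The Ctnnb1 promoter shown holds 51 CpGs in 300 bases, more than 99.3% of the 32851 promoters in the table, whose median is 7. The 2 windows that overlap it held 6 reads in all 46 libraries together. The other Ctnnb1 promoter, 9:120933150 to 120933449, holds 46 CpGs, and its 2 windows held 57 reads. The Axin2 promoter holds 31 CpGs and its windows held 35 reads, the Gsk3b promoter 21 CpGs and 31 reads, and the Gsk3a promoter 14 CpGs and 18 reads. The internal Apc2 start holds only 8 CpGs, yet its windows held 1181 reads, or 2.52 ± 0.674 CPM per kb (SD, n = 46). The windows of the other Apc2 starts, with 14, 21 and 2 CpGs, held 78, 102 and 141 reads. CPM is the read count relative to the scaled autosomal total of the library, and a level per kb divides it by the length of the windows summed. The T-cell factor motif CTTTGAT was found on neither strand of any of the 9 promoter sequences of these 5 genes, and 3.73% of all promoters hold it.

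Of the 9 promoter islands of the complex, 8 held few reads in every library, 0 to 13 each, adenomas included. The Apc island, 5 windows at 18:34220501 to 34221750, held 0 to 2 reads per adenoma, 0 to 3 per normal sample and 0 to 5 per wild type sample, and 19 of the 46 libraries had none. All 4 B6 wild type libraries were at 0 there. Ctnnb1, which encodes beta-catenin, had 0 to 4 reads per adenoma, 0 to 9 per normal sample and 0 to 5 per wild type sample. The islands of the kinase genes were as low: Gsk3a had at most 3 reads in any library, Gsk3b at most 10 and Csnk1a1 at most 6. Axin2 had at most 13 and Btrc at most 10.

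Apc2, a relative of Apc expressed mainly in neurons, had the most reads among the 8 islands other than that of Axin1, with a median of 3.5 in adenomas, 4.5 in normal mucosa and 4.5 in wild type mucosa. Most of them, 154 of 218 over all libraries, lay in its upstream window, 10:80293751 to 80294000. The 2 windows at the Apc2 start held 64. The upstream window was at 1.00 ± 0.430 CPM per kb in PWD wild type mucosa and 0.331 ± 0.197 in B6 wild type mucosa, so it was not empty in PWD. Over these 8 islands together, 50 windows, the level was 0.0718 CPM per kb at the median of adenomas (0.0348 to 0.137), 0.0819 in normal mucosa (0.0285 to 0.147) and 0.0708 in wild type mucosa (0.0233 to 0.173), so the 3 tissues overlapped throughout. The 1 input library, DNA of a B6xPWD adenoma that was sequenced without the antibody, held 58 reads or 0.633 CPM per kb in the same windows, so these windows could be read and aligned. In B6 wild type mucosa the median island level of the 9 genes was 0.0677 CPM per kb, against 0.0784 over all 14366 islands. The read counts are not independent molecules, and a count of 0 limits only what could be captured at this depth.

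The Axin1 island stood apart, but it may not be the main promoter of the gene. RefSeq gave no promoter for Axin1 here, and the island is a single window at the CpG-rich end of the annotated gene, 17:26131251 to 26131500, with 5 to 31 reads per library and 3.08 ± 0.714 CPM per kb in B6 wild type mucosa (SD, n = 4). A denser stretch inside the gene, 17:26138251 to 26139500, reached a CpG density of 40.2 and held 0.278 ± 0.101 CPM per kb in the same libraries. Which of the 2 holds the promoter was not tested, so the high level is not shown to be that of the Axin1 promoter.

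**Figure D1:**
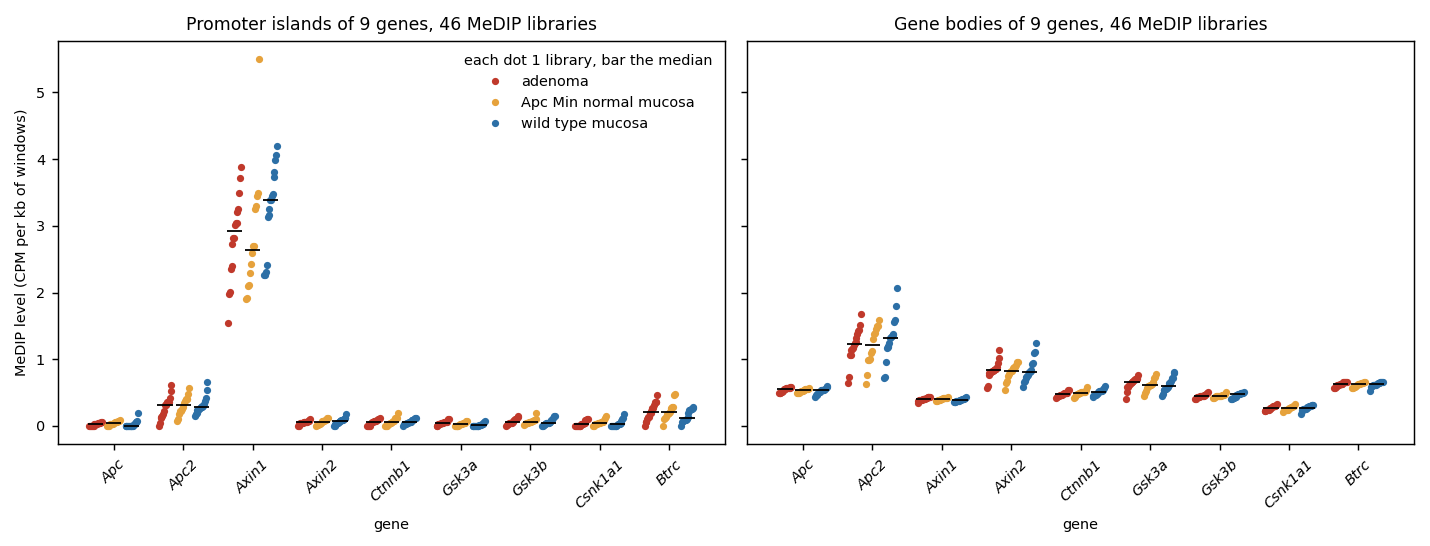
Levels of promoter islands (left) and gene bodies (right) of the 9 genes in CPM per kb of windows; each dot is 1 of 46 MeDIP libraries, coloured by tissue, and bars are medians. Islands other than the single Axin1 window have medians of 0.0280 (Gsk3a) to 0.293 (Apc2), with Apc at 0.0308, while the Apc body lies at a median of 0.539.

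The bodies held more reads per kb than the islands at all genes but Axin1, and their levels differed with the CpGs in a window. As a whole, not every body exceeded the 1 input library. Csnk1a1 (0.269 CPM per kb as a mean of 46 libraries, 0.448 in the input), Axin1 (0.398 and 0.520) and Ctnnb1 (0.493 and 0.596) were below it. Gsk3b (0.456 and 0.449) and Gsk3a (0.626 and 0.614) were near it, and Apc, Apc2, Axin2 and Btrc were above it. The body level exceeded the island level 16.6-fold at Apc, 13.6-fold at Axin2, 19.4-fold at Gsk3a, 7.95-fold at Ctnnb1, 6.79-fold at Gsk3b, 6.24-fold at Csnk1a1, 4.14-fold at Apc2 and 3.13-fold at Btrc, as means over 46 libraries. At Axin1 the ratio was 0.133. Over the 9 genes, body windows with a density under 2 held 0.194 ± 0.0195 CPM per kb in adenomas, 0.198 ± 0.0224 in normal mucosa and 0.195 ± 0.0241 in wild type mucosa (SD, n = 16, 14 and 16). Windows of density 5 to 10 held 1.32 ± 0.0715, 1.29 ± 0.0587 and 1.34 ± 0.0876 CPM per kb in the same order of tissues. Body windows with a density of 10 or more, the threshold set for an island, held 2.54 ± 0.488, 2.46 ± 0.515 and 2.60 ± 0.614 CPM per kb. The rise did not extend to the densest of them, which were nearly empty. Axin1 windows of density 26.9, 40.0 and 40.2 averaged 0.0121, 0.00190 and 0.0354 CPM over all libraries. The Apc2 window of density 29.6, 10:80320251 to 80320500, averaged 0.00964 CPM and lay in the flank past the gene end.

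Distances below run from the 5′ end to the centre of a window. Apc2 had 27 body windows of density 10 or more, 2 of them in the flank past the gene end. Axin2, a scaffold and itself a Wnt target, had 13. Btrc had 8, Apc and Axin1 5 each, Gsk3b 2, and Ctnnb1, Gsk3a and Csnk1a1 none. In Apc2 the stretch 10:80306001 to 80306500 was at 6.15 CPM per kb in B6 adenomas, 6.26 in B6 normal mucosa and 6.08 ± 2.32 in B6 wild type mucosa. In Btrc the stretch 19:45507501 to 45508000, 143938 bp from the 5′ end, was at 7.70, 7.53 and 7.17 ± 2.17 CPM per kb in the same 3 groups. In Apc the window 18:34317501 to 34317750, 97329 bp from the 5′ end, was at 4.70, 4.83 and 4.60 ± 0.364. Not every dense stretch inside a gene had a high level: 10:80299001 to 80299500, near a second Apc2 start, was at 0.389 ± 0.216 CPM per kb in B6 wild type mucosa.

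The single window with the highest level in B6 wild type mucosa lay outside the island in all 9 genes. It was at 2.05 ± 0.834 CPM in Apc2 (10:80306251 to 80306500), 2.00 ± 0.566 in Btrc (19:45470751 to 45471000), 1.89 ± 0.336 in Apc (18:34266001 to 34266250) and 1.32 ± 0.298 in Gsk3b (16:38226501 to 38226750). It was at 1.30 ± 0.305 in Axin2 (11:108950251 to 108950500), 1.26 ± 0.180 in Axin1 (17:26184001 to 26184250), 1.07 ± 0.221 in Ctnnb1 (9:120957001 to 120957250), 0.954 ± 0.281 in Gsk3a (7:25233501 to 25233750) and 0.915 ± 0.153 in Csnk1a1 (18:61559501 to 61559750). At the Apc window B6 adenomas were at 1.82 ± 0.270 CPM and B6 normal mucosa at 1.87 ± 0.227 CPM.

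Levels of the bodies per kb in B6 wild type mucosa ran from Apc2 (1.15 CPM per kb) through Axin2 (0.772), Btrc (0.641), Gsk3a (0.598), Apc (0.560), Ctnnb1 (0.533), Gsk3b (0.458) and Axin1 (0.394) to Csnk1a1 (0.271). The median of the 9 was 0.560, against 0.520 over 20665 bodies. The body whose level was most like that of Apc across the 46 libraries was Dpy19l1 (Pearson's r of log2 CPM 0.807), followed by Enpp1 (0.807) and Cfap44 (0.804). For Ctnnb1 they were Pkp4 (0.724), Fgd6 (0.687) and Scyl3 (0.678). These are descriptions over libraries that share strains and label numbers.

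Adenomas were compared with normal mucosa of Apc Min mice to ask whether the tumours carry other methylation. No promoter island or gene body of the complex passed the test. The Apc body was at 58.3 ± 2.47 CPM in B6 adenomas (n = 5), 56.9 ± 1.19 in B6 normal mucosa (n = 3) and 58.6 ± 2.73 in B6 wild type mucosa (n = 4). Over all strains it ran from 51.9 to 61.8 CPM in adenomas, with a median of 57.8, and from 51.3 to 59.6 in normal mucosa, with a median of 55.9, so the tissues overlapped. The Ctnnb1 body ran from 12.3 to 16.2 CPM in adenomas, with a median of 14.2, and from 12.5 to 17.2 in normal mucosa, with a median of 14.8.

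With the 5 strains weighted equally, 0 of 9 bodies passed an adjusted p of 0.05 in edgeR's quasi-likelihood test, where 0.0149% of all 20124 bodies tested did. The log2 differences ran from -0.04 ± 0.045 (SE) at Ctnnb1 to 0.06 ± 0.088 at Axin2. A span of 2 SE on either side allowed a ratio of adenoma to normal mucosa of 0.969 to 1.07 at Apc, 0.913 to 1.03 at Ctnnb1 and 0.968 to 1.05 at Btrc. The span was wider at Apc2, 0.846 to 1.22, and at Axin2, 0.925 to 1.18. Before adjustment the smallest p among the 9 bodies was 0.343, at Ctnnb1.

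Only 2 of the 9 islands, Apc2 and Axin1, had enough reads to be tested, and most Apc2 island reads lay in its upstream window. Neither passed, with log2 differences of -0.10 ± 0.25 and 0.04 ± 0.16 and edgeR adjusted p of 0.994 and 1.00, where 0.215% of 4646 islands did. For the other 7 a difference was not detectable at this depth. Within single strains no body or island of the complex passed either. The shares of all features called there were 0.00497% (B6), 0 (B6xPWD, C5, C5F1 and C1_5F1) for bodies, and 0.301% (B6), 0.215% (B6xPWD), 0.0215% (C5F1) and 0 (C5 and C1_5F1) for islands. A joint edgeR test of whether the adenoma effect differed between the 5 strains called none of the 9 bodies; the lowest unadjusted p was 0.334, at Axin1.

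Single windows gave the same count. Of 2640 windows, 435 passed the count filter, and 0 of these were called between adenomas and normal mucosa, where 0.000768% of 1172069 windows were; 13 of the 435 were under 0.05 before adjustment. The smallest p belonged to Btrc, 19:45458751 to 45459000, with a log2 difference of 0.57 ± 0.18. Its level was 0.620 CPM in B6 adenomas and 0.476 CPM in B6 normal mucosa.

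The effect of the Min genotype without a tumour was read from normal against wild type mucosa in B6, B6xPWD, C5 and C5F1. Again 0 of 9 bodies, 0 of 2 islands and 0 of 435 windows passed, where 0 of all 20124 bodies, 0 of 4646 islands and 0 of 1172069 windows did in edgeR. The body differences ran from -0.03 ± 0.046 at Ctnnb1 to 0.06 ± 0.093 at Axin2, and 10 windows were under 0.05 before adjustment. First among them was Gsk3b, 16:38209251 to 38209500, with 0.62 ± 0.23.

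**Figure D2:**
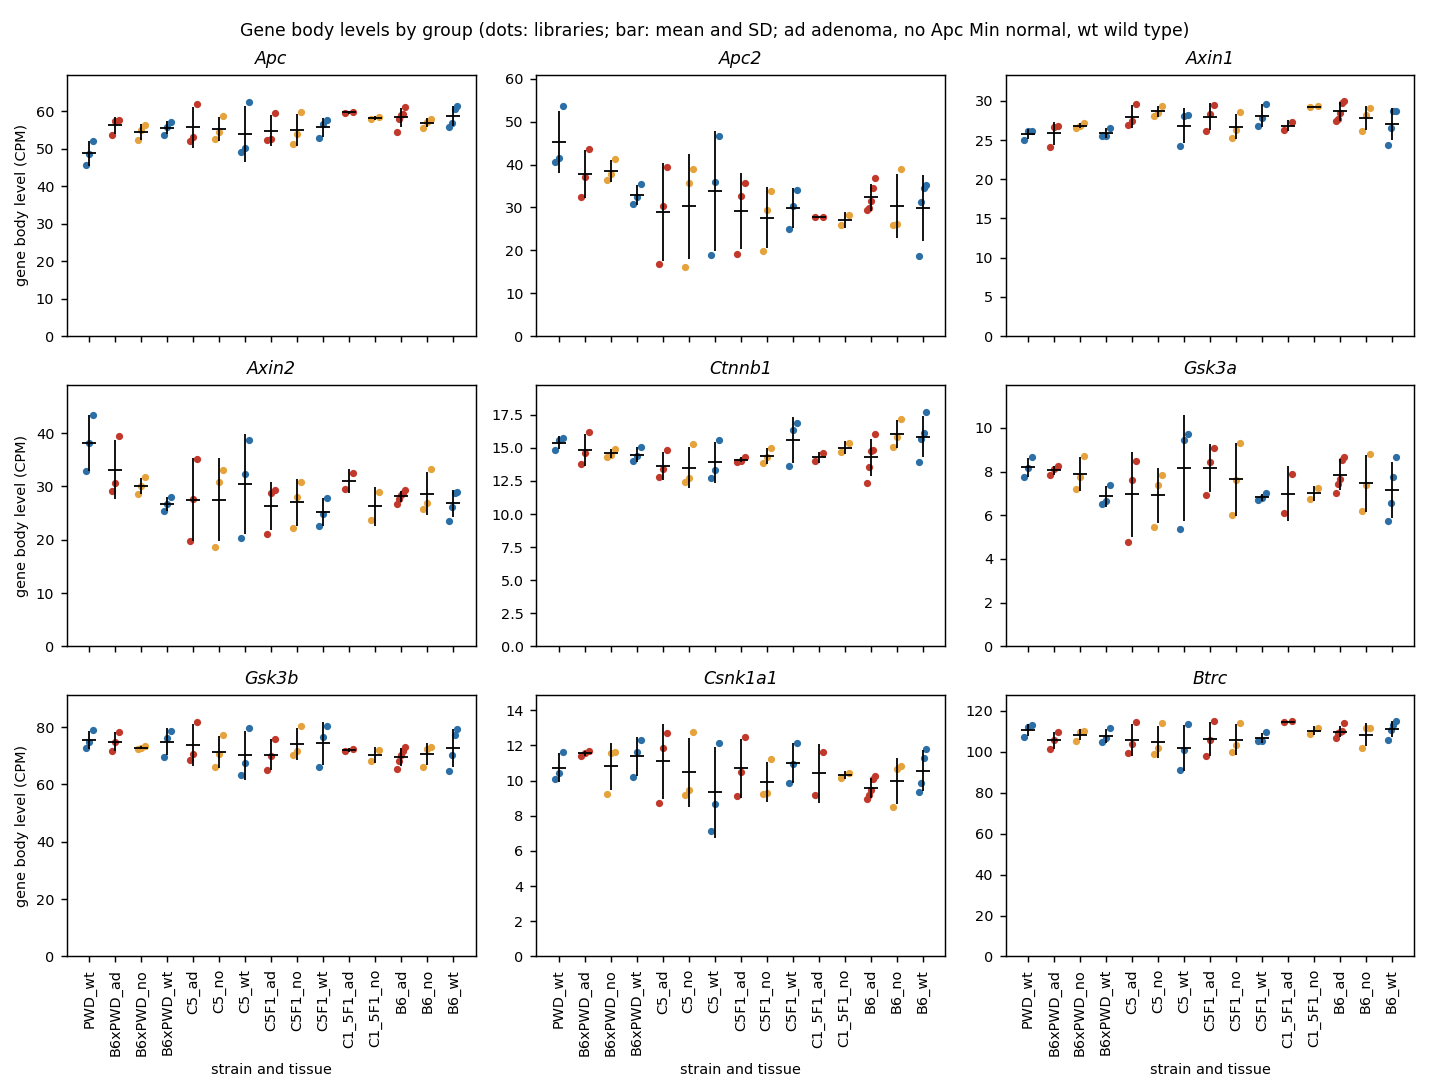
Gene body levels (CPM) of the 9 genes in 15 groups of strain and tissue; dots are libraries, bars the mean and SD, colours the tissue (ad adenoma, no Apc Min normal mucosa, wt wild type mucosa). At Apc, B6 adenomas average 58.3 and B6 normal mucosa 56.9, and the 3 PWD libraries have the lowest group mean at Apc, 48.7, and the highest at Apc2, 45.2.

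The summed levels of marker genes of other cells overlapped between the tissues. Bodies of 10 immune markers together were at 220.2 to 250.5 CPM in adenomas, 239.6 to 259 in normal mucosa and 236 to 277 in wild type mucosa. Bodies of 10 stromal, muscle and endothelial markers were at 199 to 232, 202 to 236 and 201 to 243 CPM, and bodies of 10 epithelial markers had medians of 113, 117 and 115 CPM. These are DNA levels and not expression, so they do not measure cell numbers, and their part in the result was not tested.

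Wild type mucosa of PWD was compared with that of B6 to find methylation that goes with the genome. The Apc body had 45.6, 48.4 and 52.1 CPM in PWD, against 55.7, 60.4, 61.4 and 56.9 CPM in B6. Every PWD library was below every B6 library, but the share of all bodies that separate in this way is not given here. Before adjustment 3965 of all 20124 bodies had an edgeR p under 0.05 in this comparison. The difference was -0.27 ± 0.069 (log2), with an edgeR adjusted p of 0.00995, and it was the only 1 of the 9 bodies that passed, where 8.37% of all 20124 bodies did (2.72% higher and 5.65% lower in PWD). The call was lost without the PWD library 11_1 (-0.22, adjusted p 0.102), with only the PWD and B6 groups in the fit (-0.27, adjusted p 0.0857) and with no flank around the gene (-0.22, adjusted p 0.0606).

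Apc2 and Axin2 were on the other side. The Apc2 body had 53.6, 40.6 and 41.5 CPM in PWD, against 35.2, 18.6, 31.2 and 34.5 CPM in B6, and the Axin2 body 43.4, 33.0 and 38.2 CPM in PWD, against 28.8, 23.6, 26.1 and 28.9 CPM in B6. All PWD libraries were above all B6 libraries at both genes, again without a share over all bodies to set beside it. The differences were 0.60 ± 0.26 (edgeR adjusted p 0.172) and 0.51 ± 0.17 (0.0607), neither of which passed. With the first label number as a replicate block both passed, Apc2 at 1.18 ± 0.22 (adjusted p 0.000396) and Axin2 at 0.65 ± 0.17 (0.00842), in a fit that called 21.0% of all bodies. The percentage of a library's reads that fell in CpG-dense windows differed, 5.26 to 6.16% in PWD and 4.24 to 7.18% in B6, and the Apc2 and Axin2 bodies went with this share over the 46 libraries (Pearson's r 0.565 and 0.562), as did Gsk3a (0.641), while Gsk3b and Csnk1a1 went against it (-0.767 each). With that share as a covariate 4 bodies passed: Apc2 (0.91 ± 0.075), Axin2 (0.68 ± 0.073), Gsk3a (0.35 ± 0.097) and Apc (-0.31 ± 0.046). That fit called 38.4% of all bodies, so 4 of 9 is near the background.

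Within the first label number 16, which has 1 library of each strain and so no test, the log2 ratio of PWD to B6 was -0.21 at Apc, 1.16 at Apc2 and 0.70 at Axin2. Gsk3a, at 0.19 ± 0.17, did not pass in the fit without the covariate. The bodies of Ctnnb1, Gsk3b, Csnk1a1, Btrc and Axin1 had differences between -0.07 and 0.05, none of which passed.

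**Figure D3:**
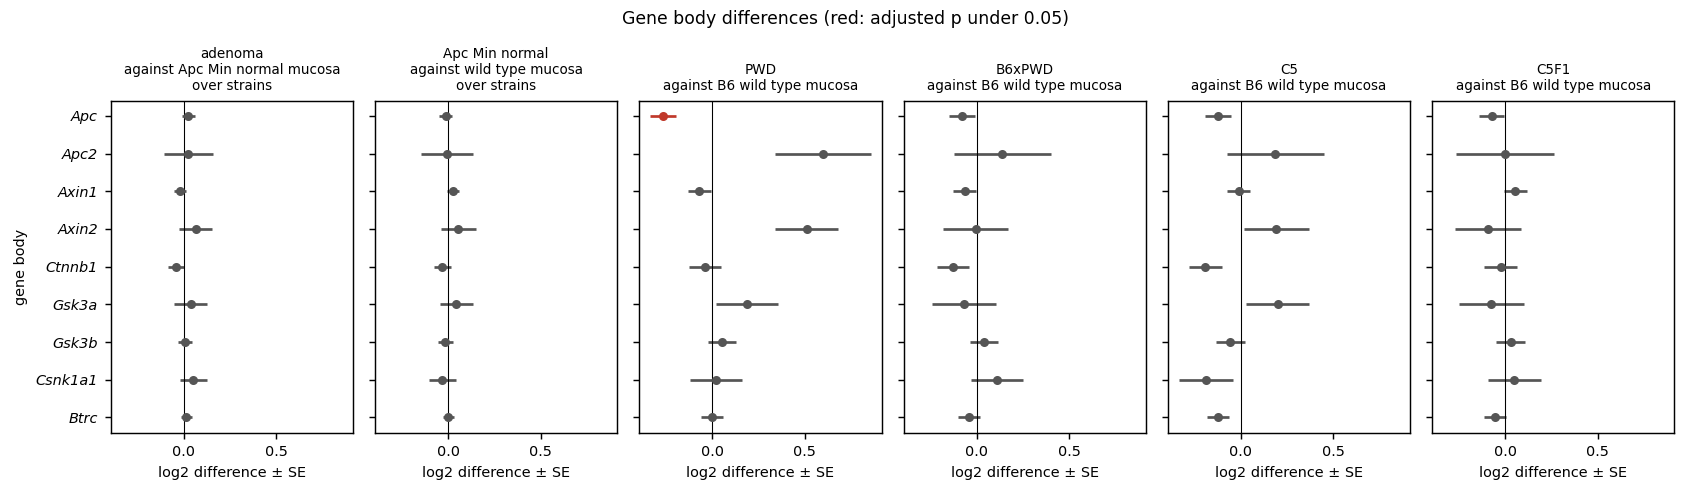
Log2 differences of the 9 gene bodies, with standard errors, in 6 comparisons; red marks an adjusted p under 0.05. The only red point is Apc at -0.27 in PWD against B6, and all points of the adenoma comparison lie between -0.04 and 0.06.

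At single windows 75 of the 435 tested were called between PWD and B6, 37 higher and 38 lower in PWD. That is 17.2%, where 19.7% of all 1172069 windows were called, so the share at these genes was near the background. The genes differed in direction. Apc had 12 windows lower and 2 higher of 68 tested, Gsk3b 8 lower and 3 higher of 83, and Btrc 12 lower and 9 higher of 143. Apc2 had 12 higher and 1 lower of 39, and Axin2 9 higher and none lower of 38. Over all windows 7.35% were called higher and 12.3% lower. Of the 12 higher windows in Apc2, 10 had a CpG density of 10 or more, as had 9 of the 26 Apc2 windows that were not called.

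The lowest p among windows lower in PWD was in Apc, 18:34294751 to 34295000, 74579 bp from the 5′ end. It had 0.0394, 0.0467 and 0.172 CPM in PWD, against 0.528, 0.579, 0.803 and 0.929 CPM in B6, a difference of -2.96 ± 0.47 (edgeR adjusted p 1.6e-06). Next was Apc 18:34254751 to 34255000, at 0.158, 0.280 and 0.259 CPM in PWD, against 1.14, 0.966, 1.15 and 1.24 CPM in B6 (-2.27 ± 0.37). PWD and B6 libraries did not overlap at these 2 windows. Since the windows were picked for a low p in the same libraries, this is no further evidence. The Gsk3b window 16:38212001 to 38212250 followed, with 1, 0 and 0 reads in PWD and 9, 6, 6 and 11 reads in B6. Another Apc window, 18:34284251 to 34284500, had 0 reads in all 3 PWD libraries and 6, 10, 9 and 6 reads in B6.

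The lowest p among windows higher in PWD was in Axin2, 11:108939001 to 108939250, with 1.97, 1.40 and 1.77 CPM in PWD, against 0.616, 0.338, 0.602 and 0.398 CPM in B6 (1.80 ± 0.29, edgeR adjusted p 1.6e-06). A neighbouring window, 11:108938001 to 108938250, had 1.30, 0.700 and 1.08 CPM in PWD, against 0.0879, 0.145, 0.151 and 0.221 CPM in B6 (2.73 ± 0.44). In Btrc the window 19:45431751 to 45432000 was at 1.79 ± 0.355 CPM in PWD and 0.525 ± 0.209 CPM in B6. In Apc2, 10:80310501 to 80310750 had 2.01, 1.77 and 1.64 CPM in PWD, against 0.308, 0.193, 0.602 and 0.708 CPM in B6. Reads were aligned to the B6-derived reference, so methylation, sequence and alignment differences between the strains cannot be told apart in these counts.

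**Figure D4:**
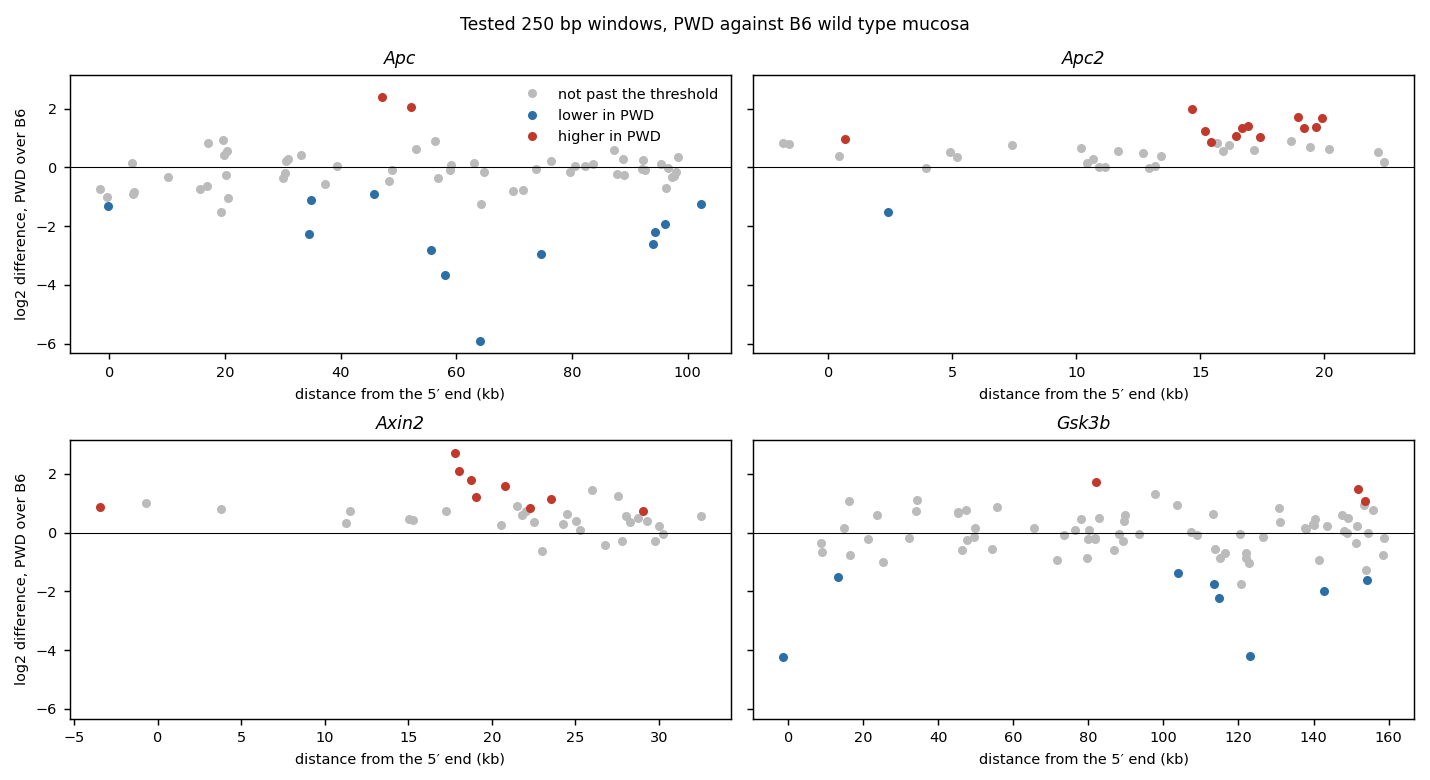
Log2 difference of PWD over B6 wild type mucosa for each tested 250 bp window against its distance from the 5′ end in kb, for Apc, Apc2, Axin2 and Gsk3b; red windows are higher and blue windows lower in PWD at an adjusted p under 0.05. Apc has 12 blue and 2 red windows, and Axin2 has 9 red and no blue ones.

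In B6xPWD wild type mucosa, which carries 1 genome of each strain, 0 of 9 bodies passed against B6, where 0.755% of all bodies did, and 2 of 435 windows passed, where 1.36% of all did. Both lay in Axin2 and were also higher in PWD. The window 11:108938001 to 108938250 had 0.646, 0.577 and 0.629 CPM in B6xPWD, against the B6 values above (1.99 ± 0.48, edgeR adjusted p 0.0161), and 11:108938251 to 108938500 had 0.692, 0.621 and 0.719 CPM, against 0.264, 0.193, 0.201 and 0.221 CPM (1.59 ± 0.38, adjusted p 0.0154). With the first label number as a replicate block neither passed, where 0.132% of all windows did. The PWD and B6xPWD comparisons share the B6 libraries.

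In C5 and C5F1, whose copies of the 9 genes lie outside the substituted chromosome, 0 bodies passed, where 0.542% and 0.0547% of all bodies did. In C5 1 window passed, where 0.730% of all did: Gsk3a 7:25232251 to 25232500 had 0.582, 0.631 and 0.291 CPM in C5, against 0.0440, 0.0966, 0.151 and 0.177 CPM in B6 (2.08 ± 0.51, edgeR adjusted p 0.0237). It had 1 to 4 reads per B6 library. With the first label number as a replicate block this window did not pass, where 0.0871% of all did. The Apc2 and Axin1 islands passed in none of the 4 comparisons of strains, where 17.7% (PWD), 7.15% (B6xPWD), 1.08% (C5) and 0.258% (C5F1) of islands did. In C5F1 0 windows passed, where 0.0280% of all did, while 14 were under 0.05 before adjustment, led by Apc, 18:34312751 to 34313000 (-1.44 ± 0.44, edgeR adjusted p 0.697).

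The windows that differ between PWD and B6 allow the B6xPWD tissues to be placed between the 2 parents. The 13 Apc windows with an at least 2-fold difference were put on a scale on which B6 wild type mucosa is 0% and PWD 100% by construction. Windows higher and windows lower in PWD were summed and placed apart, and the 2 positions were averaged with equal weight. At Apc the 2 windows higher in PWD thus counted as much as the 11 lower ones. B6xPWD adenomas were at 61.0, 38.5 and 67.1%, normal mucosa at 61.9, 47.5 and 48.1%, and wild type mucosa at 54.7, 46.4 and 35.8%. The adenomas and normal samples overlapped, with a mean difference of 3.04 points (exact permutation test, two-sided p = 0.9; the smallest p that 3 against 3 libraries allow is 0.1).

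At the 53 windows of the 7 genes that are not on chromosome 18, adenomas were at 44.1, 43.3 and 46.6%, normal mucosa at 44.5, 41.8 and 46.3% and wild type mucosa at 32.0, 40.8 and 40.2%. The difference between adenomas and normal mucosa was 0.47 points (exact permutation test, two-sided p = 0.9). For single genes the difference ran from -45.1 points at Axin1 (2 windows, exact permutation p = 0.1) to 20.6 points at Gsk3b (11 windows, exact permutation p = 0.2). Over the 10 comparisons of position the lowest p after Benjamini-Hochberg adjustment was 0.667, and Csnk1a1 and Ctnnb1 had 1 window each. B6, C5, C5F1 and C1_5F1 groups had means between -6.25 and 11.3% at the Apc windows. Such groups lay farther from B6 at some of the other genes: C5 was at 46.8% in adenomas, 34.5% in normal mucosa and 74.5% in wild type mucosa at the 3 Gsk3a windows, and the C5F1 adenomas were at 23.2% at the 11 Apc2 windows. At Apc2 the 1 window lower in PWD counted as much as the 10 higher ones. At the single Ctnnb1 window C1_5F1 normal mucosa was at 60.6%. The 13 Apc windows together held 92 to 131 reads per B6xPWD adenoma, which limits the precision of 1 library. The equal weight of the 2 windows higher in PWD limits it further.

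**Figure D5:**
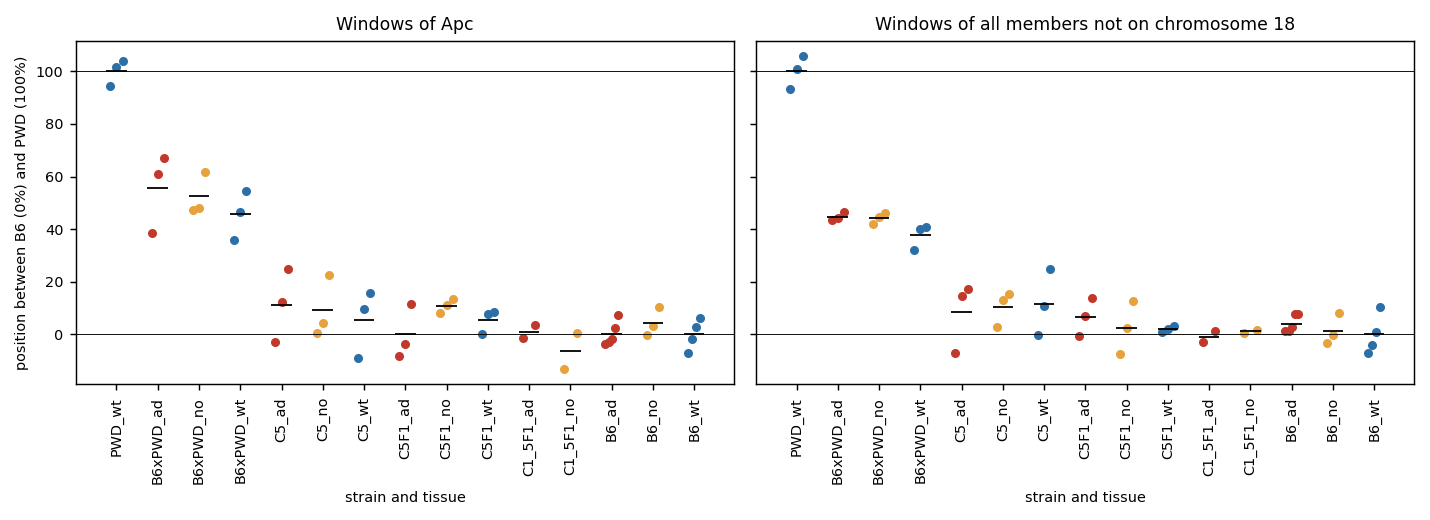
Position of each library between B6 wild type mucosa (0%) and PWD (100%) at 13 windows of Apc (left) and 53 windows of the 7 genes not on chromosome 18 (right); dots are libraries and bars group means. Each position averages windows higher and windows lower in PWD with equal weight. B6xPWD adenomas lie between 38.5 and 67.1% at Apc, across the range of B6xPWD normal mucosa, 47.5 to 61.9%.

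The other genes of the Wnt pathway were followed in a list of 52 genes. All 52 bodies and 16 of the 51 islands in the table were tested. Between adenomas and normal mucosa 0 bodies and 0 islands passed, with a median log2 difference of 0.01 over the bodies. The lowest p was at the body of Bcl9, which encodes a beta-catenin co-activator (0.07 ± 0.021, edgeR adjusted p 0.883), and next at Nkd1, an inhibitor of Wnt signalling (-0.16 ± 0.053, adjusted p 1.00). Between PWD and B6, 1 of the 52 bodies passed, where 8.37% of all bodies did. It was that of Frat2, which encodes a Gsk3-binding protein, and it was lower in PWD (-1.30 ± 0.18, edgeR adjusted p 1.4e-06). Of the 16 islands tested, 2 passed, where 17.7% of all islands did, and both were higher in PWD. They were those of Fbxw11, the paralog of Btrc (4.44 ± 0.75, edgeR adjusted p 5.3e-06), and of Ppp2r5a, a regulatory subunit of protein phosphatase 2A (3.31 ± 0.43, edgeR adjusted p 1.1e-08). Neither count was above the background share. As at the windows, methylation, sequence and alignment differences between the strains cannot be told apart here. In B6xPWD against B6, where 7.15% of all islands were called, the Fbxw11 island was higher by 3.78 ± 0.83 (edgeR adjusted p 0.00115) and the Ppp2r5a island by 1.65 ± 0.53 (0.0438).

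No other comparison had a call in this list, and the pair with the lowest p is given for each. Among islands these were Tcf7 (-0.21) and Fbxw11 (-0.86) in adenomas against normal mucosa, Amer2 (-0.30) and Bcl9 (-0.51) in Apc Min normal against wild type mucosa, Ppp2r5d (1.12) and Cdh1 (-0.77) in C5 against B6, and Fbxw11 (1.85) and Ppp2r5d (0.76) in C5F1 against B6. Among bodies they were Tnks (-0.06) and Rbx1 (0.10) in Apc Min normal against wild type mucosa, Tcf7l2 (-0.08) and Ppp2r5a (0.11) in B6xPWD against B6, Fbxw11 (-0.21) and Lrp6 (-0.20) in C5 against B6, and Tcf7l2 (-0.06) and Ppp2r5c (-0.10) in C5F1 against B6.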

How the data were processed

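The authors deposited 1 table of read counts in windows of 250 bp, with a CpG density score per window, per the file headers (the scale of that score is not stated). Per the submitters' processing notes, BWA and the mm10 build were used. Columns for 46 MeDIP libraries and 1 input library were used; 1 MeDIP sample and 6 input samples were not analysed here. Total counts per MeDIP library were 8358806 to 27842607. One B6xPWD sample, 11_6, is labelled normal mucosa for MeDIP and wild type for input, and the MeDIP label was followed.

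Gene positions are from RefSeq (GRCm38.p6, the same build as mm10). The 5′ end is the most upstream start in the RefSeq promoter table, or, where that gives none (Apc, Csnk1a1, Axin1 and Btrc), the CpG-rich gene end. Counts were summed per island and per body and tested with edgeR 4.0.16 (limma 3.58.1, R 4.3.3): a filter with a minimum count of 10, TMM scaling on autosomal totals, 1 quasi-likelihood fit of 15 groups, and Benjamini-Hochberg adjustment over all features at 0.05. For windows the dispersion trend was estimated on every 20th window. DESeq2 1.42.0 was an alternative. The script for each test was checked on simulated data. The labels name no animals, so p-values measure only the spread between these libraries.

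The members, lists and tests were chosen with earlier results of these data known. Named windows were the 3 with the lowest p per direction and comparison among those that passed, or the lowest where none passed; other windows and pathway genes are named by the same kind of rule, and the CpG-dense stretches, the Apc window without reads and the Apc2 window were chosen after their values were seen.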

Additional observations from a re-analysis of the deposited data

Results flagged for a closer look

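In the 2 groups of 4 or 5 libraries, B6 adenomas and B6 wild type mucosa, 35 sets of island or body levels of a gene were tested for a library far from the others, and 2 were flagged, where chance flags about 1 in 20. Both were the B6 wild type library 10_1 at islands with few reads. At the Axin2 island it was at 0 CPM, against a median of 0.214 CPM, with 0 reads in place of 3, 5 and 6. At the Btrc island it was at 0.218 CPM, against a median of 0.0714 CPM, with 5 reads in place of 1, 1 and 2. Neither island entered a test.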

How the results depend on the processing

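Adenoma against normal mucosa and Apc Min normal against wild type mucosa kept 0 calls among the 9 genes at islands, bodies and windows under every alternative run. In PWD against B6, 1 body passed as reported, 3 with the first label number as a replicate block (Apc, Apc2, Axin2), 4 with the CpG-dense share as a covariate (where 21.0% and 38.4% of all bodies passed), 0 with a flank of 0 bp, and 0 to 1 with 1 library left out. With only the 2 groups in the fit, Axin2 passed (0.51) and Apc did not. Islands of density 5 or more gave 3 calls there (Apc, Apc2, Gsk3b) in place of 0, where 14.0% of all did. With the covariate, 2 bodies passed in B6xPWD (15.6% of all), 5 in C5 (22.0%) and 1 in C5F1 (3.34%), where Apc2 turned to 0.27, against -0.00. In C5, library totals gave 1 (Btrc), and leaving out 1 library gave 0 to 1 (Apc, -0.24, without C5 16_1). Windows in PWD gave 33 calls at a minimum count of 20, with fewer windows tested, and 60 to 78 with 1 library left out; the block gave 0 windows in B6xPWD and in C5. The position at the genes off chromosome 18 moved to -8.65 (4-fold windows), 8.50 (windows higher in PWD) and -7.56 points (windows lower in PWD). Apart from these constructions the cause was not tested. Number 16 had a median CpG-dense share of 4.53%, against 6.25% over all libraries. Library totals shifted the median of all islands by -0.17 in B6xPWD against B6 and by 0.18, 0.12 and 0.12 in adenomas of B6, C5F1 and C1_5F1. Libraries with the same first label number deviated together more often than others: 99 of 144 same-numbered pairs across groups had a correlation of deviations over 0.1 (median 0.228), against 216 of 840 other pairs (median -0.02). What the number stands for is not given, and 23 of 46 libraries were closest to one of the same number. The fit without the block was kept as the main one, although it does not take out this shared deviation. Calls that change with the block are therefore not settled by the main fit. Leaving out libraries was not run for windows outside the PWD comparison. Depth limits the islands: 7 of 9 could not be tested.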
